A study of Homo sapiens with 12 samples.

Results

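The comparison described here sets H1299 lung cancer cells without PA200 against wild-type H1299 cells, gene by gene. Its members are the 6 of 12 libraries of the series whose labels give H1299 as the cell line, 3 from PA200 knockout cells (KO) and 3 from wild-type cells (WT). NCI-H1299 is an established human line from a lymph node metastasis of a non-small cell lung carcinoma. The knockout was made with CRISPR/Cas9, per the labels, and all groups were cultured for 48 h before poly-A RNA was sequenced. Clones and cultures are not named in the labels. The p-values therefore rest on how far the 3 libraries of a group differ, which may be technical, and a property of a clone cannot be told apart from an effect of the knockout. The other 6 libraries come from A549 cells of the same genotypes.

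PA200, encoded by PSME4, is a large nuclear protein that caps the 20S core of the proteasome and promotes degradation that needs no ubiquitin, including that of acetylated histones during DNA repair and sperm maturation. It is not known as a transcription factor. What a cancer cell line transcribes also depends on its copy number, because whole chromosome arms are often gained or lost in culture, and on whether promoters rich in CpG dinucleotides are open or closed.

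Total counts were 29525006, 23241381 and 31258258 in the KO libraries 1 to 3, and 30160789, 33671009 and 21405412 in the WT libraries 1 to 3. Levels are given as CPM, a gene's counts scaled to a common library size, and fold changes as log2 of KO over WT with their standard error (SE). PSME4 itself, on chromosome 2 (GRCh38, 53864067 to 53970840, minus strand), had 51.9, 56.2 and 52.6 CPM in KO libraries, against 264.8, 225.3 and 249.5 CPM in WT libraries. All 3 KO libraries lay far below all 3 WT libraries, a log2 fold change of -2.20 (SE 0.08, adjusted p = 7.35e-06, edgeR quasi-likelihood test with Benjamini-Hochberg adjustment). Transcript of the gene was still counted in KO libraries, and counts over the whole gene do not show whether it encodes protein. Markers of the lines had H1299 levels in both genotypes. ALDH1A1 and AKR1B10, abundant in A549, averaged 0.06 and 0.1 CPM in KO libraries and 0.06 and 0.08 CPM in WT libraries. CDH1, the epithelial cadherin, averaged 0.11 CPM in KO libraries and 0.16 CPM in WT libraries. Of 15 leukocyte markers 5 were at 0 in all 6 libraries, among them PTPRC, CD3E and MS4A1, and their summed level, nearly all of it CD68, was 68.98 to 80.06 CPM in KO libraries and 68.48 to 96.92 CPM in WT libraries. Of 15 fibroblast and endothelial markers 5 were at 0, among them LUM, COL3A1 and KDR, with sums of 2.47 to 3.99 CPM in KO libraries and 2.78 to 4.22 CPM in WT libraries.

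Of 20194 genes tested, 1786 passed an adjusted p under 0.05 (8.84%), 941 of them higher in KO (4.66%) and 845 lower (4.18%). These are called genes below, and "rose" and "fell" are used of them alone. Most changes were modest. The median log2 fold change was 0.49 over the genes that rose and -0.61 over those that fell, beside -0.003 over all genes tested. The called genes that changed at least 2-fold numbered 148 higher (0.733%) and 228 lower (1.13%), and 23 rose and 27 fell at least 8-fold. The genes that rose summed to 78351 CPM in KO libraries, against 58480 CPM in WT libraries. The genes that fell summed to 51643 CPM in KO libraries, against 72144 CPM in WT libraries. Among called genes, 64 had a mean under 1 CPM in WT and at least 1 CPM in KO, and 75 had a mean under 1 CPM in KO and at least 1 CPM in WT. In bulk RNA a smaller share of cells that transcribe a gene and less transcript per cell cannot be told apart.

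How many genes passed depended on single libraries. The count was 801 without KO library 2, 471 without KO library 3, 1176 without WT library 2 and 895 without WT library 3. A core of 397 genes (1.97% of those tested) was called in the full fit and in all 6 fits that left out a library, 197 of them higher and 200 lower. Genes named below belong to that core unless their left-out values are given. Of the called genes, 1785 had KO and WT libraries that did not overlap, as did 6178 of all genes tested (30.6%).

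The plainest changes were those of transcripts at or near 0 counts in one genotype and well counted in the other. A gene was counted as switched when one group held at most 3 counts over its 3 libraries and every library of the other held at least 10. By this rule 4 genes were on in KO and 1 was off. PPARGC1A, the co-activator of nuclear receptors that drives mitochondrial biogenesis (chromosome arm 4p), had 137, 102 and 142 counts in KO libraries, against 0, 0 and 0 in WT libraries. Its transcript was thus present in all KO libraries and in no WT library, at least 128-fold higher in KO against a floor of 3 counts over the WT group (adjusted p = 0.000104). LINC01127, a long intergenic RNA on 2q, had 150, 130 and 158 counts in KO libraries, against 0, 0 and 1 in WT libraries. That is 442-fold higher in KO with an interval of 78.9 to 1.75e+04 (exact, 95%; adjusted p = 3.66e-05). IL1R2, the decoy receptor that binds interleukin-1 without signalling, starts next to LINC01127 on the same strand and had 19, 22 and 23 counts in KO libraries, against 0, 1 and 0 in WT libraries. Both neighbours thus met the rule for genes on in KO, and IL1R2 was 64.6-fold higher there (11.2 to 2.59e+03, edgeR adjusted p = 0.00242). CADPS2, which primes dense-core vesicles for calcium-triggered release, had 63, 24 and 36 counts in KO libraries, against 2, 0 and 0 in WT libraries, and was 62.0-fold higher in KO (16.8 to 518; adjusted p = 0.0028). The gene that was off in KO was CD22, a sialic acid-binding receptor known from B cells, with 0, 0 and 0 counts in KO libraries, against 26, 73 and 12 in WT libraries. It was at least 36.7-fold lower in KO (adjusted p = 0.0125), while the B-cell marker MS4A1 stayed at 0 in all 6 libraries. Intervals and floors cover counting error only.

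With up to 10 counts allowed in the silent group, 14 more genes were on and 10 more were off in KO. NPFFR2, a receptor for neuropeptide FF, had 52, 36 and 58 counts in KO libraries, against 6, 0 and 2 in WT libraries. GJA1, the connexin of many gap junctions, had 35, 25 and 39 counts in KO libraries, against 3, 0 and 6 in WT libraries. NID1, which links laminin to collagen in basement membranes, had 38, 16 and 33 counts in KO libraries, against 4, 2 and 0 in WT libraries. These 3 rose by 4.12, 3.39 and 3.78 on the log2 scale (adjusted p = 0.00328, 0.011 and 0.00603). SAMD12, a gene outside the naming rule that was picked after its values were seen, had 53, 46 and 53 counts in KO libraries, against 3, 4 and 1 in WT libraries. Among the genes that went the other way, CCNJL, a cyclin J-like gene, had 5, 1 and 4 counts in KO libraries, against 157, 129 and 56 in WT libraries. Its highest count was in WT library 1.

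**Figure D1:**
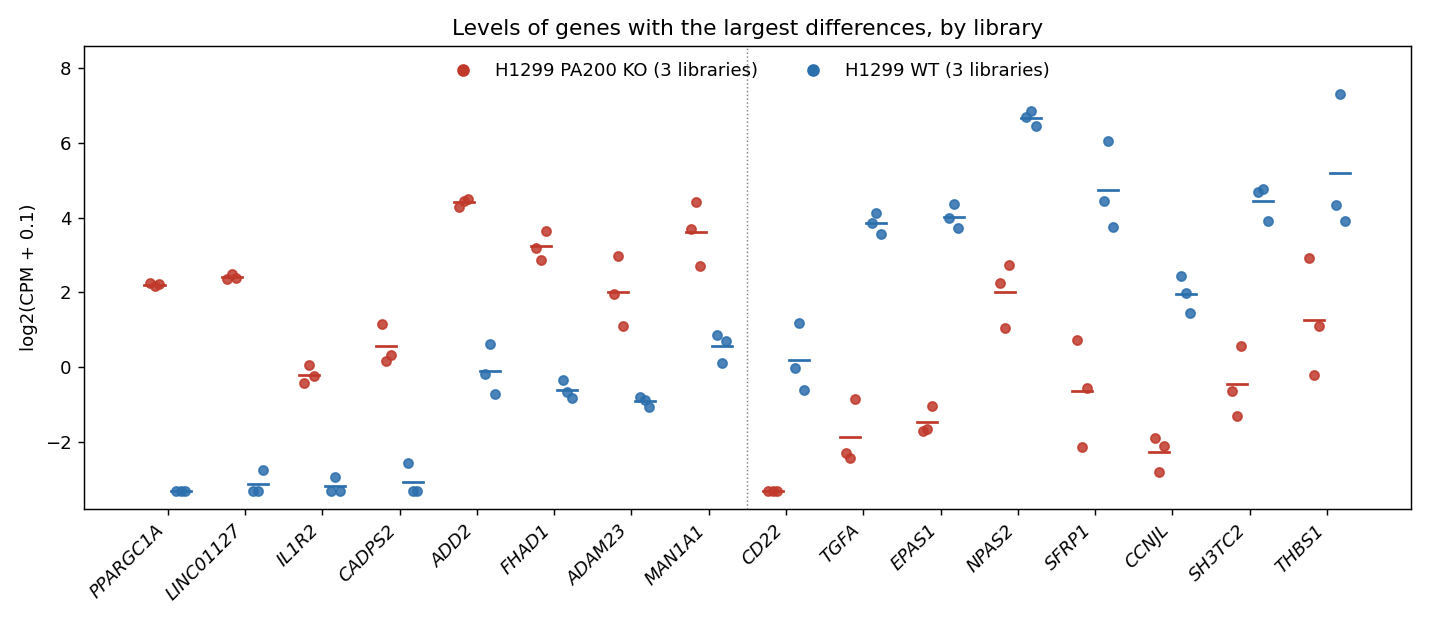
Levels of 16 genes in each library, as log2(CPM + 0.1), with KO points left of WT points and short bars at the group means. Genes left of the dotted line were higher in KO and those right of it lower. PPARGC1A sits at the floor in all WT libraries and CD22 in all KO libraries, and THBS1 has its highest point in WT library 2 at 158 CPM.

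EPAS1 encodes HIF-2α, a PAS-domain factor that is stabilised in hypoxia. It had 0.203, 0.213 and 0.386 CPM in KO libraries, against 15.9, 20.5 and 13 CPM in WT libraries, a log2 fold change of -5.90 (SE 0.28, adjusted p = 3.1e-05). NPAS2, another PAS-domain factor and a partner of BMAL1 in the circadian clock, had 4.66, 1.96 and 6.59 CPM in KO libraries, against 104, 115 and 87.5 CPM in WT libraries (log2 -4.50, SE 0.30, adjusted p = 0.000136). EPAS1 was thus nearly lost in all 3 KO libraries, and NPAS2 was much lower but stayed above 1 CPM in each of them. Both factors had more than 10 CPM in every WT library. TGFA, a ligand of the EGF receptor, had 0.101, 0.0854 and 0.45 CPM in KO libraries, against 14.3, 17.4 and 11.6 CPM in WT libraries (log2 -5.99, SE 0.37, adjusted p = 0.000104). ADD2, the beta subunit of adducin, which caps actin at spectrin junctions, went the other way with 19.6, 21.6 and 22.4 CPM in KO libraries, against 0.779, 1.42 and 0.51 CPM in WT libraries (log2 4.48, SE 0.25, adjusted p = 7.95e-05). TGFA and ADD2 lie 53.4 kb apart on 2p with no tested gene between them. Each was high in the libraries where the other was low, which follows from their separated groups and opposite directions.

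The sequences before the starts of these genes are shown because the genes were nearly silent or, for NPAS2, much lower in one genotype. Each is the 250 bases before a RefSeq start (GRCh38.p14), 5′ to 3′ on the gene's strand, with CG dinucleotides, which read the same on both strands, in capitals. The windows are chr4:23881102-23881351 (minus strand) for PPARGC1A, chr2:46297157-46297406 (plus) for EPAS1, chr2:100819889-100820138 (plus) for NPAS2, chr2:70553827-70554076 (minus) for TGFA and chr2:70768201-70768450 (minus) for ADD2. RefSeq lists 2 starts each for PPARGC1A, TGFA and ADD2, and the start nearest to the gene's 5′ end in GENCODE 29 was used. The PPARGC1A, EPAS1 and TGFA windows lie inside the spans that GENCODE 29 gives those genes, and the ADD2 window reaches into the span of its gene.
PPARGC1A: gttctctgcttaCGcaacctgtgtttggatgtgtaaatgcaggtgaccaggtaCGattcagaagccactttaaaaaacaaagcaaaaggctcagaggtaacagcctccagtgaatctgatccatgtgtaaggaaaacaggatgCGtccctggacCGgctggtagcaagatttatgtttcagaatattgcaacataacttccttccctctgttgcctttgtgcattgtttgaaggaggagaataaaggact
EPAS1: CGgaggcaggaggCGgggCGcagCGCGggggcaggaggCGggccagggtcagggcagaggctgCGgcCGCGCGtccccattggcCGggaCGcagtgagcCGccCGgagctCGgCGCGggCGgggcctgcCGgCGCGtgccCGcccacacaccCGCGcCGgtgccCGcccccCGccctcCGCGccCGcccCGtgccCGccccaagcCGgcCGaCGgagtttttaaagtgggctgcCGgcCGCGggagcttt
NPAS2: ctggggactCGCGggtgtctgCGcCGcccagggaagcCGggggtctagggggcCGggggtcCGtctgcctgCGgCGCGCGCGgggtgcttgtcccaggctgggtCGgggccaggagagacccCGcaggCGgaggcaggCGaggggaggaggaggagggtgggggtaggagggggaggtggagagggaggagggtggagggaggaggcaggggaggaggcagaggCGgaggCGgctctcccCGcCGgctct
TGFA: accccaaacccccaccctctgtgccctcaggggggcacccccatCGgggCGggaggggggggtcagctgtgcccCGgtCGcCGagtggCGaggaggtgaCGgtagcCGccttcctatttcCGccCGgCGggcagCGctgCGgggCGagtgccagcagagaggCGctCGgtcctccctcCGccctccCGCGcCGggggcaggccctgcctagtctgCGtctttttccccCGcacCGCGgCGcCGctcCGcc
ADD2: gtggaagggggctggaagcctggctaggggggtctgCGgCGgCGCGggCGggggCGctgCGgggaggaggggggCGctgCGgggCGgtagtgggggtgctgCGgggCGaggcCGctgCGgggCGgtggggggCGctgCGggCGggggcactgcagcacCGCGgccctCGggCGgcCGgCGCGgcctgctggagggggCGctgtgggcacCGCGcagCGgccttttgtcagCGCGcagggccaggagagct

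The EPAS1 window held 38 CG dinucleotides, that of ADD2 31, that of TGFA 27 and that of NPAS2 20. Among 35116 RefSeq windows of the same length, 32.4% held 20 or more and the median was 11. The PPARGC1A window held 4, and 34.3% of windows held 4 or fewer. The windows were 75.6% to 81.2% G and C in the 4 CG-rich cases and 44.0% in PPARGC1A. These are counts of letters, and DNA methylation was not measured.

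The remaining large increases came from several kinds of gene. FHAD1, a gene with a forkhead-associated domain on 1p, had 9.09, 7.13 and 12.3 CPM in KO libraries, against 0.677, 0.533 and 0.464 CPM in WT libraries (log2 4.07, adjusted p = 0.000109). MAN1A1, a Golgi mannosidase that trims N-glycans, had 12.9, 21.4 and 6.4 CPM in KO libraries, against 1.69, 0.977 and 1.53 CPM in WT libraries (log2 3.28, adjusted p = 0.00409). MAN1A1 was highest in KO library 2 and lowest of the KO group in KO library 3, yet all KO libraries exceeded all WT libraries. ADAM23, a disintegrin of neural adhesion without protease activity, had 3.78, 7.81 and 2.03 CPM in KO libraries, against 0.474, 0.444 and 0.371 CPM in WT libraries (log2 3.35, adjusted p = 0.0071). SCN9A, a voltage-gated sodium channel of pain neurons, rose by 2.93 on the log2 scale, PLAGL1, an imprinted zinc finger gene, by 2.38, and EXPH5, an effector of the vesicle GTPase Rab27, by 2.49 (adjusted p = 0.0109, 0.00271 and 0.00182). ELOVL4, which elongates very-long-chain fatty acids, had 3.72, 3.84 and 4.79 CPM in KO libraries, against 0.949, 0.562 and 0.418 CPM in WT libraries (log2 2.65, adjusted p = 0.0017).

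A pair of large increases rested on few libraries. CCNA1, the germline cyclin A, had 6.49, 12.9 and 1.64 CPM in KO libraries, against 1.52, 1.01 and 0.186 CPM in WT libraries (log2 2.86, adjusted p = 0.0415), and its call held in a single left-out fit, without KO library 3 (log2 3.34, adjusted p = 0.0195). Leaving out any other library gave adjusted p = 0.0574 to 0.122. EYA4, a transcriptional co-activator with phosphatase activity, had 9.59, 9.48 and 5.6 CPM in KO libraries, against 2.44, 0.118 and 1.35 CPM in WT libraries (log2 2.69, adjusted p = 0.0256). Its adjusted p was 0.0587 without KO library 1, 0.0748 without KO library 2, 0.0574 without KO library 3 and 0.0795 without WT library 3.

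Among the large decreases, SFRP1, a secreted Wnt antagonist, had 1.55, 0.128 and 0.579 CPM in KO libraries, against 21.5, 66.4 and 13.4 CPM in WT libraries (log2 -5.43, adjusted p = 0.00498). SH3TC2, an endosomal recycling protein of Schwann cells, had 0.54, 0.299 and 1.38 CPM in KO libraries, against 25.5, 27.3 and 14.8 CPM in WT libraries (log2 -4.87, adjusted p = 0.000614). For both genes the highest KO library stayed more than 8-fold below the lowest WT library. FBLN2, a fibulin of elastic fibres and basement membranes, had 1.15, 0.769 and 1.29 CPM in KO libraries, against 10.6, 28.3 and 12.6 CPM in WT libraries (log2 -3.99, adjusted p = 0.00182). COL13A1, a transmembrane collagen, fell by 3.88 on the log2 scale (adjusted p = 0.00205). THBS1, the matrix protein thrombospondin, had 7.4, 0.769 and 2.06 CPM in KO libraries, against 20.2, 158 and 14.8 CPM in WT libraries (log2 -4.21, adjusted p = 0.0337). WT library 2 held most of the THBS1 counts, and without that library the log2 fold change was -2.34 (adjusted p = 0.0475); the call was lost without KO library 2 (adjusted p = 0.105) and without KO library 3 (0.126). LIPG, endothelial lipase, had 0.0676, 0.128 and 0.836 CPM in KO libraries, against 25.4, 2.66 and 4.87 CPM in WT libraries (log2 -4.90, adjusted p = 0.0208). Its high value was in WT library 1, without which the log2 fold change was -3.35, and its adjusted p was 0.0598, 0.0756 and 0.053 without KO library 1, 2 and 3. Of the 20 largest changes that the naming rule took, 10 each way, 16 were called in all left-out fits and all 20 were called after each gene was centred on its neighbours along the chromosome.

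Some genes with large changes were neighbours on the chromosomes. Of 366 placed genes called at 2-fold or more, 137 (37.4%) lay within 0.5 Mb of another, in 62 groups, and 60 of these groups held genes of a single direction, 46 lower and 14 higher. Many such groups were a gene and a transcript that overlaps it. With protein-coding genes that do not overlap, 27 groups with 56 of 294 genes remained, 23 lower, 2 higher and 2 mixed, where 182 of the 294 genes fell and 112 rose. How often tested genes in general lie that close, or share a direction, was not counted. These counts of groups therefore have no background share beside them. TGFA and ADD2 formed a mixed group, and in the 1.5 Mb to either side of them 30 of 33 tested genes were not called. Over all genes tested 8.84% were called. NPAS2 and IL1R2 lie 995.0 kb apart on 2q, and of 20 genes tested within 1.5 Mb of their midpoint 2 rose, LINC01127 and IL1R2, and 6 fell. The 6 include NPAS2 and the antisense transcripts AC016738.1 and AC016738.2 within it (log2 -3.93 and -4.63). IL1R1, the signalling receptor for interleukin-1 next to IL1R2, had a log2 fold change of -0.01 and was not called (adjusted p = 0.983). LIPG and MYO5B, a myosin that moves recycling endosomes (log2 -3.41, adjusted p = 0.00269), lie 223.6 kb apart on 18q, and ACAA2 between them had a log2 fold change of -0.26 (adjusted p = 0.0684). EPAS1 lies 7.48 Mb and TGFA 16.48 Mb from PSME4 on the same arm.

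**Figure D2:**
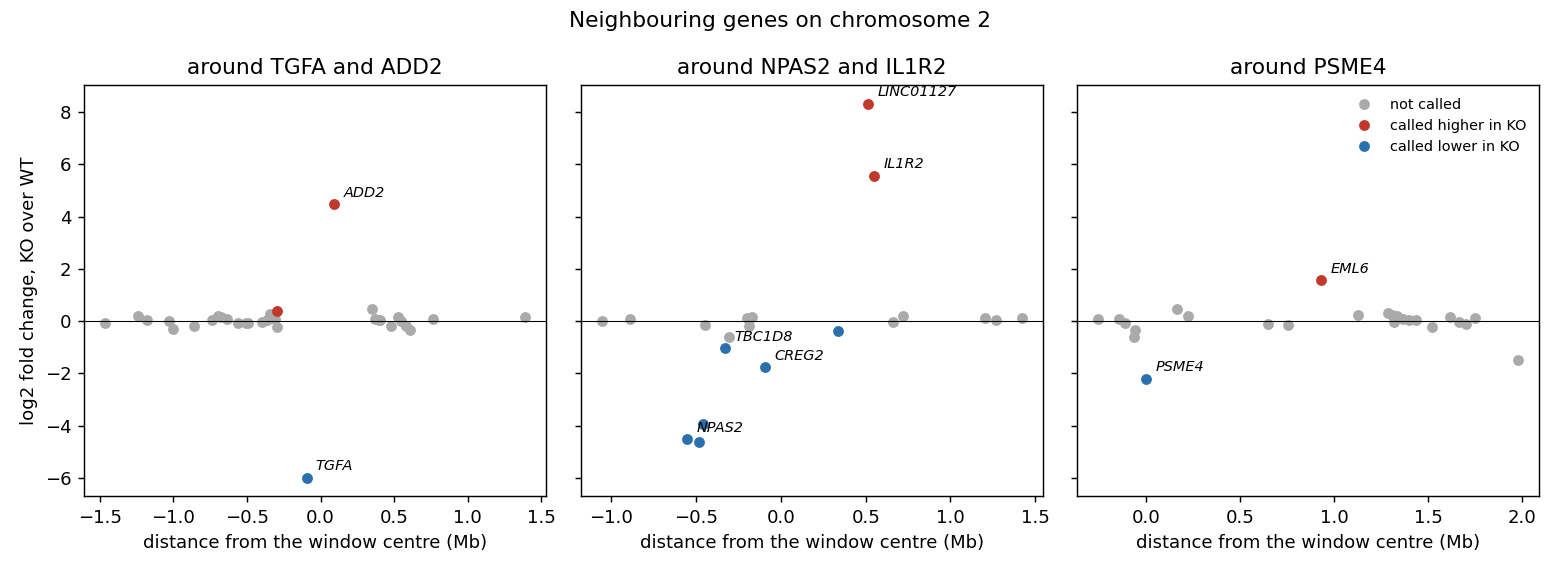
Log2 fold change, KO over WT, of every tested gene by distance in Mb from the window's centre, for TGFA and ADD2, for NPAS2 and IL1R2, and for PSME4; grey points were not called, red points rose and blue points fell. In the first window 30 of 33 genes and in the PSME4 window 23 of 25 genes are grey. Over all genes tested 8.84% were called.

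Around the edited gene itself, 24 other genes were tested within 3 Mb of PSME4, with a median log2 fold change of 0.068. EML6, a microtubule-associated protein gene 0.93 Mb away, was called among them, with 12.4, 14.9 and 15.0 CPM in KO libraries, against 4.61, 4.02 and 5.57 CPM in WT libraries (log2 1.58, SE 0.15, adjusted p = 0.00129). The other 23 neighbours, among them SPTBN1 (log2 -0.11) and RTN4 (log2 0.22), were not called, where 8.84% of all genes tested were.

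Genes for secreted proteins were grouped into 13 classes by the roles of their products. Of 338 tested, 65 were called (19.2%), 24 higher and 41 lower, with a median log2 fold change of -0.106, beside 11.5% of 13205 protein-coding genes. In the core were 7 of those that rose and 18 of those that fell, and without KO library 3 the count was 31. These lists were drawn up with earlier results of these data known, and no test of the classes was made. Extracellular matrix genes were called mostly in the lower direction. Of 44 matrix proteins outside the collagens and laminins 1 rose and 10 fell (25% called, median log2 -0.276). Of 14 collagens 1 rose and 4 fell (35.7%, median log2 -0.691). Of 15 laminins and other basement membrane genes 1 rose and 3 fell (26.7%, median log2 -0.248). FN1, fibronectin, had 13.4, 10.9 and 10.9 CPM in KO libraries, against 40, 41.4 and 32.8 CPM in WT libraries (log2 -1.70, adjusted p = 0.000319). TGFBI, a matrix protein induced by TGF-beta, had 39.2, 24.2 and 50 CPM in KO libraries, against 176, 147 and 120 CPM in WT libraries (log2 -1.96, adjusted p = 0.00271). For FN1 and TGFBI the KO and WT libraries were far apart. COL9A3, a chain of cartilage collagen, fell by 2.29 and LAMB1, a laminin chain, by 1.74 on the log2 scale (adjusted p = 0.00293 and 0.0059), whereas NID1 of the same membranes rose.

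Proteases and their inhibitors changed in both directions. TIMP2, which inhibits matrix metalloproteinases, had 19.1, 16.7 and 49.8 CPM in KO libraries, against 160, 212 and 147 CPM in WT libraries (log2 -2.59, adjusted p = 0.00559). MMP14, the membrane protease that activates pro-MMP2 together with TIMP2, had 133, 113 and 147 CPM in KO libraries, against 210, 207 and 214 CPM in WT libraries (log2 -0.68, adjusted p = 0.00476). KO library 3 kept the most TIMP2 of the KO group, and whether the changes of inhibitor and protease differ was not tested. ADAMTSL3, a matrix protein related to the ADAMTS proteases, fell by 1.53 (adjusted p = 0.00271), and ADAMTS16 rose by 1.19 on the log2 scale (adjusted p = 0.00702). SERPINA1, antitrypsin, had 0.101, 0.0854 and 0.193 CPM in KO libraries, against 1.08, 5.56 and 2.97 CPM in WT libraries (log2 -4.59, adjusted p = 0.00732). PRSS12, a serine protease of neurons on 4q, rose by 1.41 (adjusted p = 0.00304), and SPINK5, a protease inhibitor of epithelia, fell by 0.91 (adjusted p = 0.0118).

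Of 45 growth factors 7 rose and 5 fell (26.7% called). Of these 1 and 4 lie off the chromosome arms that were shifted as a whole (1q, 4p, 4q and 8q, described below). FGF5 on 4q had 192, 267 and 231 CPM in KO libraries, against 116, 76.6 and 89 CPM in WT libraries (log2 1.29, adjusted p = 0.00304). FGF1 went the other way, with 0.642, 0.811 and 1.29 CPM in KO libraries, against 3.76, 2.81 and 2.64 CPM in WT libraries (log2 -1.74, adjusted p = 0.00788). Both proteins bind FGF receptors, and the KO and WT libraries did not overlap for either gene. ANGPT1, the ligand of the endothelial receptor TIE2, on 8q, rose by 1.41 (adjusted p = 0.00557), and METRN, a neurotrophic factor, fell by 1.11 (adjusted p = 0.00858). Among 23 cytokines and chemokines 1 rose and 1 fell (8.7% called). The gene that fell was LIF, a cytokine of the interleukin-6 family, with 29.8, 31.6 and 33 CPM in KO libraries, against 61.8, 43.8 and 54 CPM in WT libraries (log2 -0.76, adjusted p = 0.00869). Of 31 axon guidance cues 4 were called (12.9%, beside 11.5% of protein-coding genes), 1 of them in the core, and these fell. Among them was SLIT3, a repellent that binds ROBO receptors (log2 -1.39, adjusted p = 0.0113). NAMPT, an enzyme of NAD synthesis that is also secreted, rose by 0.53 (adjusted p = 0.0065).

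**Figure D3:**
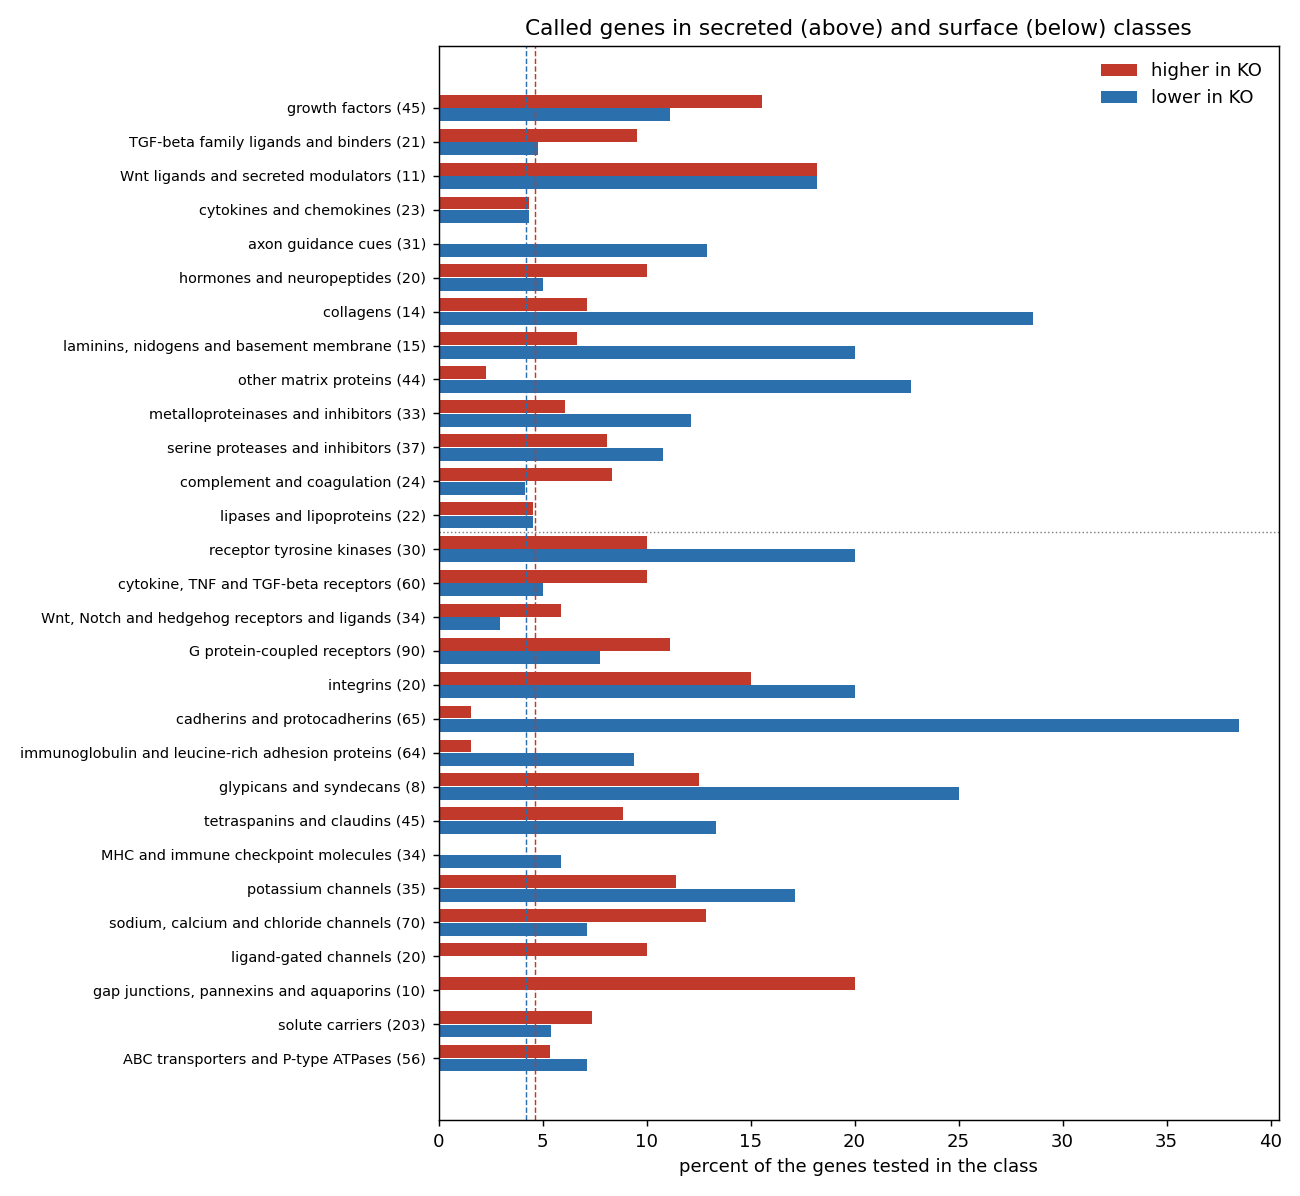
Percent of tested genes called higher (red) and lower (blue) in KO for 13 secreted classes above the dotted line and 16 surface classes below it. Dashed lines mark 4.66% and 4.18% of all genes. Of 13205 protein-coding genes alone, 817 were called higher and 706 lower. Collagens and other matrix proteins show longer blue than red bars, and the long blue bar of cadherins holds the 22 genes of the gamma protocadherin cluster.

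Of 839 genes for surface proteins in 16 classes, 153 were called (18.2%), 66 higher and 87 lower, with a median log2 fold change of -0.051, beside 11.5% of protein-coding genes. Of the 87 lower genes 22 belong to the gamma protocadherin cluster, which counts as 1 signal. Without that cluster 131 of 817 were called (16%), 66 higher and 65 lower, and after centring on neighbours 111 of the 839 were called, 54 higher and 57 lower. The core held 17 higher and 24 lower genes, and the count was 77 without KO library 2, 49 without KO library 3 and 88 without WT library 3. Of 30 receptor tyrosine kinases 3 rose and 6 fell (30% called). MET, the receptor for hepatocyte growth factor, had 196, 169 and 194 CPM in KO libraries, against 110, 86.4 and 117 CPM in WT libraries (log2 0.84, adjusted p = 0.00471). MST1R, the closest relative of MET, had 2.23, 2.18 and 1.77 CPM in KO libraries, against 4.4, 4.74 and 4.73 CPM in WT libraries (log2 -1.17, adjusted p = 0.00424). The 2 related receptors thus changed in opposite directions. ERBB4, a receptor of neuregulins, fell by 2.93 and ROR1, a Wnt co-receptor, by 1.15 on the log2 scale (adjusted p = 0.00566 and 0.00732).

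Of 20 integrins 3 rose and 4 fell (35% called, beside 11.5% of protein-coding genes), and those of the core all fell. ITGA3, the alpha subunit of a laminin receptor, had 148, 96.5 and 138 CPM in KO libraries, against 331, 318 and 295 CPM in WT libraries (log2 -1.30, adjusted p = 0.00205). ITGB3, the beta subunit of the vitronectin receptor, had 1.38, 1.02 and 1.48 CPM in KO libraries, against 4.27, 3.85 and 4.31 CPM in WT libraries (log2 -1.66, adjusted p = 0.00209). ITGA10, a collagen receptor subunit on 1q, fell by 1.75 (adjusted p = 0.00409). Of 65 cadherins and protocadherins 1 rose and 25 fell, but 22 of the 25 belong to the gamma protocadherin cluster on 5q, whose members share their last exons, so they count as 1 signal. Their log2 fold changes ran from -0.75 to -0.66, and none was called once genes were centred on their neighbours. PCDHGC3, the member with the smallest adjusted p, had 108, 86.4 and 112 CPM in KO libraries, against 211, 147 and 159 CPM in WT libraries. PTPRK, an adhesive receptor phosphatase, had 80.7, 64 and 70.4 CPM in KO libraries, against 33, 29 and 36.8 CPM in WT libraries (log2 1.13, adjusted p = 0.0017).

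Channels, receptors and transporters gave scattered changes. Of 35 potassium channel genes 4 rose and 6 fell (28.6% called, beside 11.5% of protein-coding genes). KCNJ2, an inward rectifier, had 1.28, 1.41 and 1.61 CPM in KO libraries, against 6.06, 7.75 and 6.26 CPM in WT libraries (log2 -2.22, adjusted p = 0.000375), and the KO values were close together. KCNIP3, which binds channels and calcium, fell by 1.79, while KCNA6, a voltage-gated channel gene inside GALNT8, rose by 1.78 (adjusted p = 0.0166 and 0.00481). Of 70 sodium, calcium and chloride channel genes 9 rose and 5 fell (20% called). CACNG6, a calcium channel subunit, fell by 1.16 (adjusted p = 0.00266). Of 90 G protein-coupled receptors 10 rose and 7 fell (18.9% called). ADORA2A, an adenosine receptor, had 5.54, 3.71 and 4.31 CPM in KO libraries, against 11.7, 16.5 and 10.2 CPM in WT libraries (log2 -1.50, adjusted p = 0.0054). ADGRB1, an adhesion receptor of brain, fell by 1.22, and the orphan receptors GPR63 and GPR162 rose by 1.02 and 1.20 (adjusted p = 0.00751, 0.00675 and 0.00716).

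Of 203 solute carriers, a list that includes carriers of inner membranes, 15 rose and 11 fell (12.8% called, beside 11.5% of protein-coding genes). SLC37A2, a sugar phosphate carrier, fell by 1.91, SLC12A7, a potassium chloride cotransporter, by 1.63, and SLC47A1, which extrudes organic cations, by 1.27 (adjusted p = 0.00205, 0.0028 and 0.00488). SLC4A7, a sodium bicarbonate cotransporter, had 312, 328 and 292 CPM in KO libraries, against 198, 144 and 200 CPM in WT libraries (log2 0.78, adjusted p = 0.00786), and SLC6A8, the creatine transporter, rose by 0.74 (adjusted p = 0.0107). Of 60 cytokine, TNF and TGF-beta receptors 6 rose and 3 fell (15% called). Among those that fell were IL4R, the interleukin-4 receptor (log2 -0.90, adjusted p = 0.00398), and TNFRSF1B, a TNF receptor (log2 -1.72, adjusted p = 0.0084). Of 34 MHC and checkpoint genes none rose and 2 fell (5.88% called).

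Inside the cell, 500 of 4312 genes in the intracellular classes were called (11.6%), 276 higher and 224 lower, of which 70 and 54 belonged to the core. That share is close to the 11.5% of protein-coding genes. Off the shifted arms 182 were higher and 166 lower, and after centring on neighbours 185 and 169. Intermediate filaments and plakins had the largest called share, 10 of 23 tested (43.5%), 1 higher and 9 lower, with a median log2 fold change of -0.274. LMNA, which encodes the nuclear lamins A and C on 1q, had 250, 177 and 214 CPM in KO libraries, against 502, 453 and 431 CPM in WT libraries (log2 -1.11, adjusted p = 0.00205). KRT80 and KRT15, epithelial keratins, fell by 2.16 and 2.38 (adjusted p = 0.00271 and 0.000676). VIM, the filament protein vimentin of mesenchymal cells, had 2114, 2133 and 2188 CPM in KO libraries, against 2825, 2749 and 2384 CPM in WT libraries (log2 -0.31, adjusted p = 0.0373), and it was called in 1 of the 6 left-out fits, that without WT library 3.

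Rac, Ras and related small GTPases with their regulators changed in 35 of 152 cases (23%, beside 11.5% of protein-coding genes), 13 higher and 22 lower, of which 11 and 15 lie off the shifted arms. After centring on neighbours 8 were higher and 14 lower. EPS8, an actin capper that couples receptors to Rac, had 5.98, 1.24 and 3.02 CPM in KO libraries, against 68, 41.3 and 30.3 CPM in WT libraries (log2 -3.74, adjusted p = 0.0028). DOCK10, an exchange factor for Cdc42 and Rac, had 33.7, 25.4 and 34.3 CPM in KO libraries, against 10.6, 4.05 and 5.2 CPM in WT libraries (log2 2.23, adjusted p = 0.00452). Its relative DOCK4 rose by 1.12 and ARHGAP18, a GTPase-activating protein, by 0.98 (adjusted p = 0.00422 and 0.00168). Of 170 actin, spectrin and myosin genes 10 rose, ADD2 among them, and 14 fell (14.1% called), among them SYNPO, an actin organiser of podocytes (log2 -3.46, adjusted p = 0.00194). In membrane traffic 22 of 339 genes rose and 16 fell (11.2% called). SORCS2, a sorting receptor on 4p, fell by 1.87 and TBC1D2, a Rab7 regulator, by 1.82, while SNX9, which bends membrane in endocytosis, rose by 0.95 (adjusted p = 0.00182, 0.00226 and 0.00871).

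Most transcription factor classes had called shares above the 11.5% of protein-coding genes, with 20.4% of bHLH and PAS factors, 16.7% of bZIP factors, 16% of homeobox factors, 15.2% of forkhead, SOX, KLF and related factors and 15.1% of nuclear receptors and co-activators, whereas zinc finger genes were called in 4.6% of cases. Some of these shares rest on few genes: 7 of 42 bZIP factors, 15 of 94 homeobox factors and 11 of 73 nuclear receptors and co-activators. The core held 2 higher and 4 lower bHLH and PAS factors, 0 and 1 bZIP factors and 0 and 2 homeobox factors. It held 6 and 4 forkhead, SOX, KLF and related factors and 6 and 1 nuclear receptors and co-activators. No test of the classes was made. Of 54 bHLH and PAS factors 3 rose and 8 fell, and 7 of the 54 were called after centring on neighbours, each of them lower. PER3, a period gene of the circadian clock, had 28.9, 29.1 and 28.3 CPM in KO libraries, against 44.5, 49.1 and 42.7 CPM in WT libraries (log2 -0.66, adjusted p = 0.00292). CLOCK on 4q, a partner of BMAL1, rose by 0.50 (adjusted p = 0.00763). It lost its call after centring on neighbours (adjusted p = 0.52). TEF, a PAR bZIP factor, fell by 1.06 (adjusted p = 0.0107). KLF4, a factor of epithelial differentiation and pluripotency, had 0.777, 0.854 and 0.997 CPM in KO libraries, against 6.1, 6.54 and 4.59 CPM in WT libraries (log2 -2.71, adjusted p = 0.000319). EOMES, a T-box factor of mesoderm and lymphocytes, had 43.3, 49.6 and 43.3 CPM in KO libraries, against 22, 13.9 and 21.1 CPM in WT libraries (log2 1.26, adjusted p = 0.00334). SOX17, an endoderm factor on 8q, rose by 2.12, NFIX, a nuclear factor I gene, fell by 1.52, and HOXD8, a homeobox gene, fell by 1.88 (adjusted p = 0.00562, 0.00615 and 0.0114). MYC on 8q rose by 0.53 (adjusted p = 0.00388) and was not called after centring on neighbours (adjusted p = 0.12). Of 73 nuclear receptors and co-activators 7 rose, among them PPARGC1A and the corepressor NRIP1 (log2 1.18, adjusted p = 0.0043), and 4 fell, among them the glucocorticoid receptor NR3C1 (log2 -0.64, adjusted p = 0.00853). NR3C1 was not called after centring on neighbours (adjusted p = 0.18).

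Of 118 tested genes of the respiratory chain and of mitochondrial biogenesis 4 rose, the switched PPARGC1A among them, and 4 fell. That was 6.78%, beside 11.5% of protein-coding genes, with a median log2 fold change of -0.057. Mitochondrial ribosomal proteins gave 4 of 78 higher and none lower (5.13% called), led by MRPL15 on 8q (log2 0.71, adjusted p = 0.00271). The 4 called genes of 51 for the proteasome and its activators (7.84%, beside 11.5% of protein-coding genes) fell, PSME4 among them. The median was 0.002 over the list. Only 2 of the 4 lie off the shifted arms, and 2 were called after centring on neighbours. Of 369 ubiquitin ligases and deubiquitinases 39 rose and 10 fell (13.3% called, close to the 11.5% of protein-coding genes). Off the shifted arms 22 were higher and 5 lower. After centring on neighbours 19 were higher and 10 lower. HERC4, a ubiquitin ligase on 10q, had 94, 91.1 and 88.7 CPM in KO libraries, against 60.9, 56 and 58.3 CPM in WT libraries (log2 0.64, adjusted p = 0.00199), and OTUB2, a deubiquitinase, fell by 0.70 (adjusted p = 0.0121). Of 33 histone genes, many of which are near copies of each other and lack poly-A tails, none rose and 4 fell (12.1% called). Of 143 glycosyltransferase and mannosidase genes 12 rose and 7 fell (13.3% called). EXT1, which builds heparan sulfate, rose by 0.91, GALNT8, a mucin-type transferase, by 1.63, and FUT8, which adds core fucose, fell by 0.46 (adjusted p = 0.00984, 0.00471 and 0.01). The fatty acid elongases ELOVL6 and ELOVL2 rose by 0.82 and 0.57 beside ELOVL4 (adjusted p = 0.00266 and 0.0148). Kinases other than receptors gave 22 higher and 19 lower of 296 (13.9% called). PRKCA, a protein kinase C, had 39.8, 36.1 and 38.7 CPM in KO libraries, against 23.8, 20.2 and 24.2 CPM in WT libraries (log2 0.75, adjusted p = 0.00342). Cyclins, CDK inhibitors and E2F factors gave 8 higher and 5 lower of 49 (26.5% called). CCNC, the cyclin of the Mediator kinase, rose by 0.54 (adjusted p = 0.0107). Of 500 zinc finger genes 13 rose and 10 fell (4.6%), and of 59 interferon-stimulated genes 2 rose and 4 fell (10.2%). Of 79 cancer-testis and germline genes 3 rose (3.8%). Antisense genes, lincRNAs and processed pseudogenes were called in 4.8%, 4.42% and 1.66% of cases.

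Whole chromosome arms also differed between the genotypes. Of 41 arms with at least 30 expressed genes, 4 were shifted, with separated libraries, an adjusted p under 0.05 (limma) and a shift of at least 0.15 on the log2 scale: 1q by -0.279, 4p by 0.259, 4q by 0.384 and 8q by 0.247. On these arms 556 of 1906 tested genes were called (29.2%), 7 higher and 187 lower on 1q, 57 and 5 on 4p, 173 and 3 on 4q, 117 and 7 on 8q. The arms were picked by the shift of these same genes in the same libraries. A raised called share and a leaning to the direction of the arm were therefore built in. On the other arms 1203 of 17752 genes were called (6.78%), 568 higher and 635 lower. This count was 501 without KO library 2, 305 without KO library 3, 746 without WT library 2 and 587 without WT library 3. Arms that did not pass could lean as well: 6q held 80 higher and 3 lower genes with a shift of 0.210 (adjusted p = 0.109), and 16q held 2 higher and 61 lower genes with a shift of -0.154 (adjusted p = 0.134). DNA copy number was not measured, so a shift in copies of an arm and a shift in its transcription cannot be told apart.

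**Figure D4:**
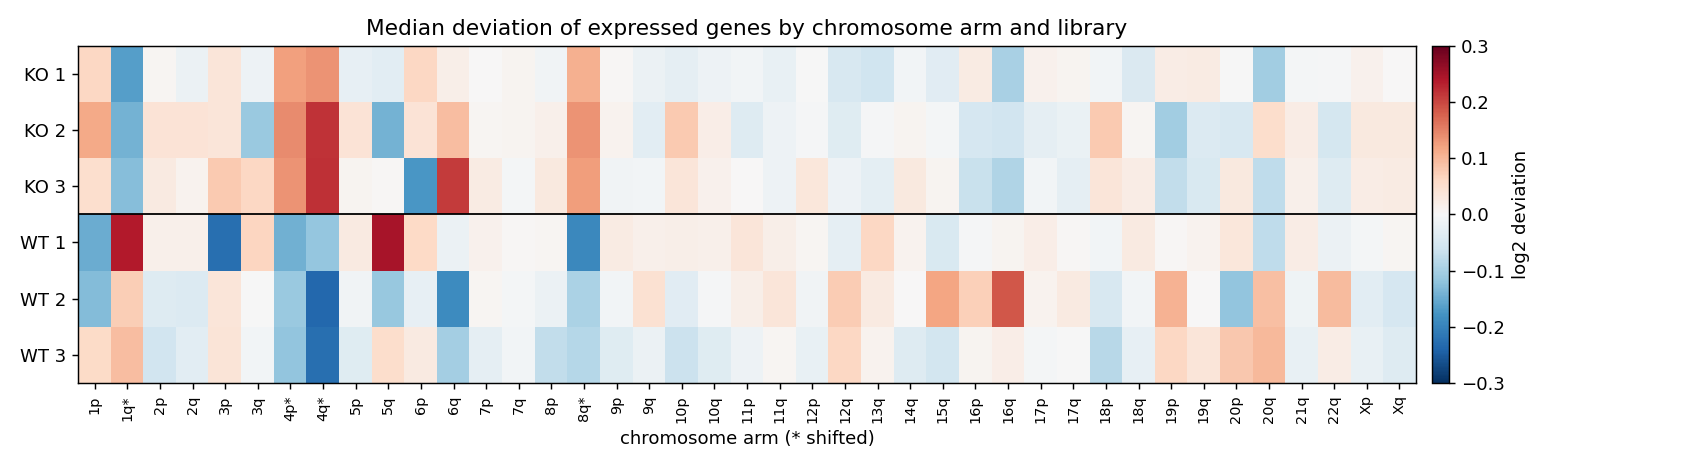
Median log2 deviation from the gene means for 41 chromosome arms (columns marked with * are shifted) in each library, KO 1 to 3 above WT 1 to 3. On 4q all KO rows are above and all WT rows below 0, and on 1q the reverse; single libraries also stand out on arms that are not shifted.

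To see what stayed outside such regional shifts, each gene was set against the median of 50 expressed neighbours on either side, an alternative chosen after the data were seen. By that measure 1265 genes were called (6.26%), and with centring on arm medians 1256 (6.22%). Of the 1786 called genes 951 (53.2%) were called in both ways. On the shifted arms 110 of 556 remained called (19.8%), and on the other arms 815 of 1203 (67.7%). On the other arms 290 of 316 genes called at 2-fold or more, 111 higher and 205 lower, were kept, and of 887 with smaller changes 525 were kept. Where the neighbours of a gene on the other arms had not shifted, 761 of 937 called genes were kept (81.2%), and where they had, 54 of 266 (20.3%). Centring removes the same shift of the neighbours that defines this split. A lower kept share there, and on the shifted arms, was therefore built in. Of the secreted genes called, 10 of those higher and 36 of those lower lay off the shifted arms, and of the surface genes 50 and 79. On the shifted arms themselves PPARGC1A (4p), NID1 (1q), LMNA (1q), FGF5 (4q), PRSS12 (4q), SOX17 (8q) and SORCS2 (4p) were called after centring on neighbours, NID1 and SORCS2 against the direction of their arm. CLOCK (4q), IQGAP3 (1q, a scaffold of Rac and Cdc42; log2 -0.51, adjusted p = 0.00605) and H3F3A (1q, a gene for the replacement histone H3.3; log2 -0.54, adjusted p = 0.00451) were not.

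Many of the called genes overlap another gene, and the strand setting of the count was not given in the sources used here, so reads of such pairs cannot be told apart. Of 173 pairs of called genes that overlap on opposite strands, 172 changed in the same direction, and 76 of the 98 called antisense genes belong to such a pair. VIM, which along with AL133415.1 is outside the core, averaged 2145 CPM in KO libraries and 2652 CPM in WT libraries, and AL133415.1 on the opposite strand, called in 2 left-out fits, averaged 985.7 CPM in KO libraries and 1266.8 CPM in WT libraries. Among the genes named here FHAD1, NPAS2, THBS1, EYA4, MAN1A1, PTPRK, ITGA10, MYO5B, HOXD8, PER3, CLOCK, SNX9, SLIT3, LIF, ADORA2A, GALNT8 and SLC47A1 overlap a called gene on the other strand, and TIMP2, KRT15, KCNA6, GALNT8 and PCDHGC3 overlap one on their own strand. Their values carry that uncertainty.

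In A549 the same comparison was made on separate libraries. Of 59 genes called in both lines, which are 3.3% of the genes called in H1299 and 13.7% of the 430 called in A549 (2.14% of those tested there), 27 moved the same way and 32 opposite ways. The difference of the effects passed in 788 of 22635 genes (3.48%), TGFA, EPAS1, NPAS2 and ADD2 among them. ADAM23 rose by 3.35 on the log2 scale in H1299 and had a log2 fold change of -4.33 in A549. NPAS2 and SFRP1 fell in both lines, with log2 fold changes of -0.85 and -0.99 in A549 (adjusted p = 0.017 and 0.0432). Of the switched genes, PPARGC1A had 0, 33 and 9 counts in A549 KO libraries, against 0, 0 and 0 in A549 WT libraries. CADPS2 had 5, 11 and 11 counts in A549 KO libraries, against 0, 0 and 4 in A549 WT libraries. IL1R2 had 9, 1 and 9 counts in A549 KO libraries, against 3, 2 and 0 in A549 WT libraries. LINC01127 had 0, 0 and 0 counts in A549 KO libraries, against 0, 0 and 0 in A549 WT libraries. CD22 had 36, 49 and 27 counts in A549 KO libraries, against 34, 23 and 5 in A549 WT libraries, and was not called there (edgeR, adjusted p = 0.99). PPARGC1A, CADPS2, LINC01127 and IL1R2 were below the count filter in A549. For CADPS2 and IL1R2 the test of a difference between lines did not pass (edgeR interaction, adjusted p = 0.22 and 0.112). That test cannot decide for PPARGC1A, with 0 counts in the WT groups of both lines. Nor can it for LINC01127, with 0 counts in every A549 library.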

How the data were processed

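The authors deposited gene counts as 1 table per cell line with 59050 gene symbols and 6 libraries each, not normalized. Libraries came from poly-A RNA with a stranded kit after 48 h of culture, per the labels' protocols. The submitters' processing notes name bcl2fastq 2.20.0.422 and the build GRCm38.p6, which is murine, whereas the symbols are human; the aligner, the counter and its strand setting are not given in the sources used here. Libraries are numbered in accession order, which pairs nothing.

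Counts were analysed in R 4.3.3. Genes were kept by filterByExpr (minimum count 10), libraries were scaled with TMM, and edgeR 4.0.16 tested KO against WT (quasi-likelihood) on the 6 H1299 libraries, with a Benjamini-Hochberg adjusted p under 0.05 over all genes tested. An exact permutation test of 3 against 3 libraries has 10 splits and cannot go below p = 0.1. Of the symbols 56159 (95.1%, with 99.1% of the H1299 counts) matched GENCODE 29 once, which gave GRCh38 coordinates; promoter sequences are RefSeq's. Arm medians of each library's deviations were compared with limma 3.58.1. The difference between lines came from 1 fit over 12 libraries. Folds of switched genes use a floor of 3 counts over the group where it held 0 counts and exact 95% intervals elsewhere.

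The genes, lists and classes were chosen with earlier results of these data known. The text names the 10 largest changes each way among separated genes whose mean log2 CPM is 1 or more, up to 3 genes each way per class with the smallest adjusted p, switched genes, abundant genes and the neighbours of PSME4, as far as space allowed, and some genes the rule takes are not reported here; genes outside the rule, such as SAMD12, ACAA2, IL1R1 and the antisense transcripts of NPAS2, were picked after their values were seen. Alternatives were RLE size factors, no TMM scaling, other filters, DESeq2 1.42.0, limma-voom, stricter thresholds, centring within arms, removal of shifted arms, each library left out and, chosen after the data were seen, centring on neighbours. The fit was tested on simulated data (19933 genes): it found 41.5% of 1.5-fold, 73.8% of 2-fold and 98.4% of 4-fold changes, with 4.9% false among its calls. Counts were simulated for each gene independently, without shifted arms or differences between clones. These shares therefore hold for such data and need not hold for the real libraries.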

Additional observations from a re-analysis of the deposited data

Results flagged for a closer look

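The same knockout in A549 cells allowed the effect of each named gene to be compared between lines, and 59 of the 126 genes named differed by a test of the difference itself (edgeR interaction over 12 libraries, adjusted p under 0.05); in 43 of them the 2 log2 fold changes had opposite signs, and 9 were also called in A549. Most of these genes were named for their change in the same H1299 libraries. A share above that of all genes (788 of 22635, 3.48%) was therefore built in. For a gene not called in A549, the sign of its A549 value is uncertain. Values below are the log2 fold change in H1299 minus that in A549. The genes with the largest negative differences, which fell in H1299 and did not fall as far in A549, had differences of -8.60 for LIPG, -8.03 for CD22, -7.04 for TGFA, -5.99 for SH3TC2, -5.62 for COL13A1, -5.41 for EPAS1, -5.32 for THBS1, -4.58 for EPS8, -4.57 for CCNJL, -4.45 for SFRP1, -4.29 for FBLN2 and -3.79 for MYO5B. Smaller negative differences were -3.71 for AC016738.2, -3.68 for NPAS2, -3.41 for TBC1D2, -3.27 for SYNPO, -2.91 for AC016738.1, -2.86 for KRT15, -2.78 for KLF4, -2.69 for KRT80, -2.35 for TIMP2, -2.34 for TGFBI, -2.22 for NFIX, -1.87 for LAMB1 and -1.78 for SLC12A7. The remaining negative differences were -1.34 for MST1R, -1.31 for ROR1, -1.25 for ITGA3, -1.19 for OTUB2, -1.10 for SLC47A1, -0.99 for LMNA, -0.90 for KHDRBS3, -0.88 for NR3C1, -0.78 for LIF, -0.73 for FUT8, -0.68 for IQGAP3 and -0.61 for H3F3A. Positive differences were 0.77 for PRKCA, 0.93 for MRPL15, 0.94 for MYC, 0.95 for NAMPT, 0.97 for PPP2R2C, 1.08 for NRIP1, 1.09 for ELOVL2, 1.15 for SNX9, 1.74 for EOMES, 1.97 for GPR162 and 2.13 for EML6. Larger positive differences were 2.53 for CKMT1B, 2.66 for CKMT1A, 2.73 for GPR63, 2.91 for DOCK10, 3.12 for SAMD12, 3.76 for GJA1, 4.11 for NID1, 4.28 for FHAD1, 4.96 for ADD2 and 7.67 for ADAM23. PSME4 itself had a difference of 0.91, with a log2 fold change of -2.20 in H1299 and -3.13 in A549, so its transcript fell less in H1299. LIPG, TGFA and THBS1 fell in H1299 and rose in A549, and ADAM23 rose in H1299 and fell in A549, each called in both lines. NPAS2, SFRP1, AC016738.1, AC016738.2 and PSME4 were called in both lines as well and fell in both. What sets these differences was not tested.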

How the results depend on the processing

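Of all genes, 1786 were called in the analysis described. The count was 3077 with no filter on low counts, 932 with shifted arms left out, 323 at an adjusted p under 0.01 and 376 at 2-fold, and 471 to 1469 with a library left out. Under DESeq2, limma-voom, RLE size factors, a filter at 1 CPM, no TMM scaling and centring within arms or on neighbours it was 1256 to 2320. The split moved from 52.7% higher of those called to 900 higher and 886 lower with RLE and to 984 and 813 without TMM, and more genes were lower than higher with DESeq2 (1137 higher and 1183 lower), with no filter (1336 and 1741) and with shifted arms left out (435 and 497). Secreted genes called numbered 65, and 137 with no filter, 41 with shifted arms left out, 23 at an adjusted p under 0.01, 36 at 2-fold and 31 to 65 with a library left out. Surface genes called numbered 153, and 291, 34 and 50 with no filter, at an adjusted p under 0.01 and at 2-fold, and 49 to 139 with a library left out. Called genes outside shifted arms numbered 1203, and 305 to 1024 with a library left out. PSME4 kept its call in every alternative run (log2 -2.27 to -2.16, and -2.26 to -2.16 with a library left out). Switched genes depend on the count rule by its construction: 4 were on and 1 off, 18 and 11 with up to 10 counts in the silent group, and 0 were off when every expressed library needed 1 CPM. With a library left out, so that 3 counts cover fewer libraries in the silent group, 5 to 11 were on and 2 to 10 off. Shifted arms numbered 4 to 5 with a library left out, 1p being added without WT library 3. The difference between lines was called for 788 genes, and for 1729 with DESeq2. Beyond what these constructions show, the cause was not tested. No paired analysis was possible because the labels and columns carry no replicate numbers shared between the groups. CCNA1, LIPG and THBS1 were not called by limma-voom, nor EYA4 by DESeq2. Depth limits low genes: 50 called genes had a mean under 1 CPM in both groups.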

Other observations

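Creatine kinase and polyamine genes were not described above. CKMT1A and CKMT1B, nearly identical genes for the mitochondrial creatine kinase between which reads may be misassigned, averaged 9.43 ± 2.4 and 8.34 ± 2.3 CPM in KO libraries and 2.40 ± 0.44 and 2.13 ± 0.43 CPM in WT libraries (SD, n = 3 each), with adjusted p = 0.00205 and 0.00271 (edgeR). SAT1, the rate-limiting enzyme of polyamine breakdown, had 46.5, 39.2 and 39.6 CPM in KO libraries, against 24.8, 20 and 28.8 CPM in WT libraries (log2 0.77, adjusted p = 0.0114). PC, pyruvate carboxylase, fell by 0.86 (adjusted p = 0.0135).

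Phosphatases gave 19 higher and 8 lower of 157 (17.2% called, beside 11.5% of protein-coding genes). PTPRJ, a receptor phosphatase, had 13.2, 11.7 and 19.3 CPM in KO libraries, against 43, 53.6 and 34.3 CPM in WT libraries (log2 -1.57, adjusted p = 0.00409), and PPP2R2C, a regulatory subunit of PP2A on 4p, rose by 0.57 (adjusted p = 0.00409). Among RNA-binding genes LIN28B, which blocks let-7 maturation, rose by 0.66, AGO2, the slicer of RNA interference, on 8q, by 0.66, and KHDRBS3, a splicing regulator also on 8q, fell by 1.25 (adjusted p = 0.00616, 0.00242 and 0.00129).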
